A study of Mus musculus with 12 samples.

Results

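The genes described here are 10 marker genes of neutrophils, measured in mouse renal cortex: S100a8, S100a9, Retnlg, Csf3r, Il1r2, Clec4d, Mmp8, Mmp9, Ngp and Ltf. Members were probe sets of the deposited value table with exactly 1 gene symbol that is among these 10 names, and each of the 10 genes had exactly 1 such probe set. They are 10 of 19938 genes that could be named in this way. Cortex RNA of 12 samples was amplified and hybridised to Affymetrix mouse gene arrays, 3 arrays in each of 4 groups. GR KO AKI samples came from mice of genotype Pax8-Cre;nr3c1 flox/flox, in which the glucocorticoid receptor (GR, gene Nr3c1) is deleted in tubular epithelium by a Cre recombinase under Pax8 control, 24 hours after glycerol was injected into muscle to cause myoglobinuric acute kidney injury (AKI). Control AKI samples came from nr3c1 flox/flox mice without Cre, 24 hours after the same injection. GR KO healthy and control healthy samples came from uninjected mice of the same 2 genotypes, which formed a separate cohort. Mice of all 4 groups therefore carried the floxed alleles, and a difference between genotypes includes any effect of Pax8-Cre itself. A difference between AKI and healthy samples likewise includes any difference between the cohorts and any effect of the injection procedure. The design cannot tell these apart from the injury, also where a rise or fall after AKI is given below. The sources used here do not give strain, age or sex. Samples of a group are numbered, with no statement that each came from its own animal. The p-values therefore measure the spread between the samples, and this spread may be technical.

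Neutrophils are short-lived white blood cells that mature in the bone marrow and leave the blood for injured tissue within hours of damage. They are drawn by CXC chemokines acting on the receptor CXCR2 and are released and kept alive by granulocyte colony-stimulating factor acting on the receptor encoded by Csf3r. Much of their protein cargo is packed into granules while the cells are still in the marrow: genes of the early granules such as Mpo and Elane, and of the later granules such as Ltf, Ngp and Camp, are transcribed mainly in precursors, whereas S100a8, S100a9, Csf3r, Il1r2 and Retnlg are transcribed in mature cells. In the injured kidney neutrophils gather in the vessels and interstitium around damaged tubules. In a bulk sample such as cortex RNA, fewer cells of a type and less RNA of a gene per cell cannot be told apart.

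All values are log2 expression values as deposited, and each array's median over the 19938 genes lay between 7.001 and 7.09. Nr3c1, the deleted gene, stood at 8.10, 7.96 and 7.87 in GR KO AKI and at 8.82, 8.89 and 8.86 in control AKI, and at 8.18, 8.13 and 8.21 in GR KO healthy and 9.65, 9.48 and 9.52 in control healthy cortices. Every GR KO array lay below every control array for this gene. Control AKI replicate 1 stood apart in its narrow spread over genes (SD 1.88, against 1.96 to 2.06 on the other 11 arrays) and in its high lower quartile (5.94, against 5.60 to 5.78), so dim genes read slightly higher on it. GR KO healthy replicate 1 stood apart in Lcn2, a tubular injury gene, which read 9.94 on it, against 6.99 and 7.18 on the other GR KO healthy arrays. Without both of these arrays the counts of called members given below were 0 for AKI in GR KO mice, 7 for AKI in control mice, 7 for GR KO against control in AKI and 6 for the interaction, the call lost being that of Mmp9. A gene is called changed where its limma adjusted p, taken over all 19938 genes of a comparison, is under 0.05. Each difference is a log2 difference, and the value after ± is its standard error (SE) in limma.

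Promoter sequences of 4 members are printed here because S100a8, S100a9 and Retnlg had the largest responses to AKI, while Ngp had none that passed the test. Sequences are from RefSeq on build GRCm38.p6, run 5′ to 3′ on the strand of the gene and cover 250 bases before and 50 after its start. Capitals mark matches, on either strand, to TTNNGNAA (the core of sites for C/EBP factors, which drive granulocyte genes), GAGGAAG (a core of PU.1 sites, PU.1 being a myeloid factor) and AGAACA (a part of the GR site). S100a8 lies on the plus strand at chr3:90668821-90669120, S100a9 on the minus strand at chr3:90695672-90695971, Retnlg on the plus strand at chr16:48872358-48872657 and Ngp on the plus strand at chr9:110419558-110419857. No coding gene of the RefSeq table lies between S100a8 and S100a9.
S100a8: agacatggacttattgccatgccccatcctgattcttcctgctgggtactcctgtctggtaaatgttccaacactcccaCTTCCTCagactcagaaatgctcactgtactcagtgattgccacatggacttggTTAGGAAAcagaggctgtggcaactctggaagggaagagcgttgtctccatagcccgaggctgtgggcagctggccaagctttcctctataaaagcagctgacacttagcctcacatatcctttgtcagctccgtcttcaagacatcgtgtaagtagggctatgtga
S100a9: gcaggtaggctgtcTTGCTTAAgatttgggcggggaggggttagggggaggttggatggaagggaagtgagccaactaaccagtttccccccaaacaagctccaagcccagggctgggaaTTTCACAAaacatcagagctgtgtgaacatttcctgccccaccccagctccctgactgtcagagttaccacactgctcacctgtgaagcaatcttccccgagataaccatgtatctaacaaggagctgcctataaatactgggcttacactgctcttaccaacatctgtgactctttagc
Retnlg: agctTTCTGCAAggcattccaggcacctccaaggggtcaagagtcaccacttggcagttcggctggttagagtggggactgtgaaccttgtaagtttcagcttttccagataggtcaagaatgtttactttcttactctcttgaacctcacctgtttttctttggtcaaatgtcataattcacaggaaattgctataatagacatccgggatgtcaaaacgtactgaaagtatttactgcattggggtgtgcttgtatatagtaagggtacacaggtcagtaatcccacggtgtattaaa
Ngp: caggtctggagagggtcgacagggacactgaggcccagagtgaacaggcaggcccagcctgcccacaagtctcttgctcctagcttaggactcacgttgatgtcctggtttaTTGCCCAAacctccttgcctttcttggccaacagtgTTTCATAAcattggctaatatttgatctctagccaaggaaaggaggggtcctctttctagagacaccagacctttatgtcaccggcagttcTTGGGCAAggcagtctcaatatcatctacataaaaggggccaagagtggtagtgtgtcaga
Of the 10 members, 9 had a promoter in the table. The C/EBP core was found in 7 of these 9 (S100a8, S100a9, Retnlg, Mmp8, Ngp, Ltf and Clec4d), and in 40.7% of all 32841 promoters of this length. The PU.1 core was found in 4 of 9 (S100a8, Csf3r, Mmp8 and Clec4d) and in 13.6% of all promoters, and the GR motif in 1 of 9 (Clec4d) and in 19% of all promoters. Ngp, which was not called after AKI, held 3 C/EBP matches and S100a8 held 1. A match describes these letters and does not show a bound site.

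Across the 10 members, AKI was followed by higher levels in control mice. No member was called after AKI in GR KO mice, where few genes were called at all. In control mice 8 of 10 members rose after AKI and 0 fell, with a median difference of 0.76 against 0.00 over all genes, where 13.6% of all genes were called higher. In GR KO mice 0 of 10 members passed the limma test for a rise or a fall. An unadjusted p under 0.05 was found there for 2 of 10 members and for 3662 of all 19938 genes. The median difference there was 0.07 against -0.03 over all genes, where 3.29% of genes were called higher and 1.35% lower. The 0 of 10 called is close to these shares and does not set the members apart from other genes. The difference between the responses, tested as an interaction, was negative and called for 6 of 10 members (S100a8, S100a9, Retnlg, Csf3r, Mmp8 and Il1r2), against 4.06% of all genes. Both AKI groups were compared directly as well: 7 of 10 members were lower in GR KO AKI than in control AKI, where 7.34% of genes were called lower. Between the uninjected genotypes 0 of 10 members were called by limma, against 0.0351% of genes called higher and 0.11% called lower. There 0 of 10 members had an unadjusted p under 0.05, against 2124 of all 19938 genes. The comparisons of control AKI with control healthy and with GR KO AKI share the 3 control AKI arrays, so their counts are not independent of each other.

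**Figure D1:**
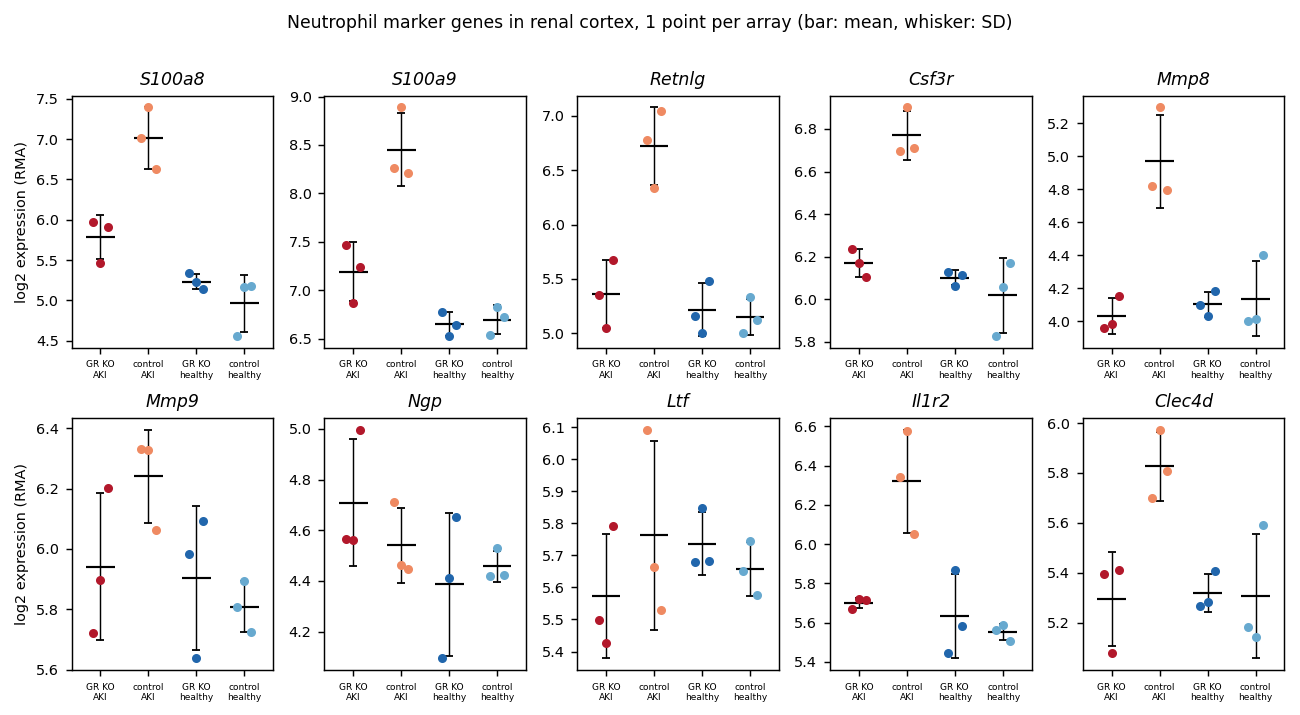
Log2 expression of the 10 neutrophil marker genes (y axes, one scale per gene, not starting at 0) on each of the 12 arrays, with GR KO AKI, control AKI, GR KO healthy and control healthy from left to right, the group mean as a bar and the SD as a whisker. Control AKI arrays lie above the other 9 arrays for S100a8, S100a9, Retnlg, Csf3r, Mmp8, Il1r2 and Clec4d, and overlap each other group for Ngp and Ltf. For Ngp the GR KO AKI arrays lie above the control healthy arrays.

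S100a8 and S100a9 encode the 2 subunits of calprotectin, a calcium- and zinc-binding protein that fills the neutrophil cytosol and signals danger once released. S100a8 read 5.98, 5.47 and 5.91 in GR KO AKI, 7.01, 7.39 and 6.62 in control AKI, 5.33, 5.23 and 5.14 in GR KO healthy and 4.55, 5.16 and 5.17 in control healthy cortices. Control AKI arrays were the highest, GR KO AKI arrays lay between them and the healthy arrays without overlap on either side, and the healthy groups overlapped each other. Its level rose by 2.05 ± 0.20 in control mice (4.13-fold, limma adjusted p = 2.43e-06, n = 3 arrays per group). In GR KO mice the difference was 0.55 ± 0.20 (95% confidence interval 0.12 to 0.98, unadjusted p = 0.0162, limma adjusted p = 0.15), so a rise of this gene did not pass the test over all genes, although its unadjusted interval lies above 0. The responses differed by -1.50 ± 0.29 (limma adjusted p = 0.00346).

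S100a9 read 7.47, 6.87 and 7.24 in GR KO AKI, 8.26, 8.89 and 8.21 in control AKI, 6.77, 6.52 and 6.64 in GR KO healthy and 6.53, 6.82 and 6.73 in control healthy cortices. It was ordered like its partner among the AKI groups, with control AKI above GR KO AKI and no overlap between them. The rise in control mice was 1.76 ± 0.18 (3.38-fold, limma adjusted p = 3.56e-06) and the difference in GR KO mice 0.55 ± 0.18 (95% confidence interval 0.16 to 0.93, limma adjusted p = 0.107). With array quality weights S100a9 passed in GR KO mice as well. GR KO AKI lay 2.34-fold below control AKI for S100a8 and 2.4-fold below it for S100a9 (limma adjusted p = 0.000662 and 0.000217). Of the 10 members, these were the 2 for which every GR KO AKI array lay above every GR KO healthy array, an order that held for 12.8% of all genes.

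Retnlg encodes resistin-like gamma, a small secreted protein whose mRNA is abundant in mouse neutrophils. Its values were 5.35, 5.05 and 5.68 in GR KO AKI, 6.78, 6.34 and 7.05 in control AKI, 5.16, 5.004 and 5.48 in GR KO healthy and 4.997, 5.33 and 5.12 in control healthy cortices. All 3 control AKI arrays stood clear of the other 9, which overlapped one another. In control mice the gene rose by 1.57 ± 0.19 (2.97-fold, limma adjusted p = 1.75e-05). The difference in GR KO mice was 0.14 ± 0.19 with a 95% confidence interval of -0.27 to 0.55, which excludes a change as large as that in control mice. GR KO AKI was lower than control AKI by 2.57-fold (limma adjusted p = 0.000185), the largest fold between these groups among the 10 members.

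Among the receptors, Csf3r encodes the receptor for granulocyte colony-stimulating factor. It read 6.24, 6.17 and 6.10 in GR KO AKI, 6.70, 6.90 and 6.71 in control AKI, 6.13, 6.06 and 6.11 in GR KO healthy and 5.83, 6.06 and 6.17 in control healthy cortices. The 3 control AKI arrays were again the highest of the 12, and the replicates of each AKI group lay close together (SD 0.07 in GR KO AKI and 0.11 in control AKI). Csf3r rose by 0.75 ± 0.11 in control mice (limma adjusted p = 8.57e-05), against 0.07 ± 0.11 in GR KO mice (95% confidence interval -0.16 to 0.30). The interaction was -0.68 ± 0.15 (limma adjusted p = 0.00962).

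Il1r2 encodes the decoy receptor that binds interleukin 1 without signalling. It read 5.67, 5.72 and 5.71 in GR KO AKI, 6.34, 6.57 and 6.05 in control AKI, 5.45, 5.87 and 5.58 in GR KO healthy and 5.56, 5.59 and 5.51 in control healthy cortices. Control AKI arrays did not overlap any other group, and the GR KO AKI arrays fell inside the range of GR KO healthy arrays. The rise in control mice was 0.77 ± 0.13 (limma adjusted p = 0.000456), and GR KO AKI lay below control AKI by 1.54-fold (limma adjusted p = 0.00469). Its interaction of -0.70 ± 0.19 passed with all arrays (limma adjusted p = 0.0271) and was lost in 7 of the 12 fits that left out 1 array, with adjusted p from 0.056 to 0.0735 in those without GR KO AKI replicate 1, 2 or 3, control AKI replicate 2, GR KO healthy replicate 2 or control healthy replicate 1 or 3. It was also lost after cyclic loess normalization (adjusted p = 0.0529).

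Clec4d encodes a C-type lectin receptor of myeloid cells that recognises fungal and mycobacterial glycolipids. Its values were 5.40, 5.08 and 5.41 in GR KO AKI, 5.70, 5.97 and 5.81 in control AKI, 5.27, 5.28 and 5.41 in GR KO healthy and 5.18, 5.14 and 5.59 in control healthy cortices. Control AKI arrays were above all others here too, by a narrower margin than for the genes above. The rise in control mice was 0.52 ± 0.14 (limma adjusted p = 0.00896, and 0.0505 without control healthy replicate 2). GR KO AKI was lower than control AKI by 1.45-fold (limma adjusted p = 0.0136), a call lost without GR KO AKI replicate 2 (0.0802), without control AKI replicate 2 (0.0678) and after cyclic loess normalization (0.054). Its interaction of -0.55 ± 0.19 did not pass (limma adjusted p = 0.0877). Clec4e, which encodes the partner lectin Mincle and is the next coding gene on the chromosome, was not called in any of the 5 comparisons. Its values were 4.78, 4.47 and 5.06 in GR KO AKI and 5.24, 5.14 and 4.98 in control AKI, against 4.65, 4.90 and 4.98 in GR KO healthy and 5.17, 5.03 and 5.16 in control healthy cortices.

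Mmp8 and Mmp9 encode neutrophil collagenase and gelatinase B, zinc-dependent proteases stored in granules that cleave matrix. Mmp8 read 3.96, 3.98 and 4.16 in GR KO AKI, 4.82, 5.30 and 4.79 in control AKI, 4.10, 4.03 and 4.18 in GR KO healthy and 4.001, 4.01 and 4.40 in control healthy cortices. Only the control AKI arrays left the band shared by the other 9. It rose by 0.83 ± 0.15 in control mice (limma adjusted p = 0.000457), against -0.07 ± 0.15 in GR KO mice, and the responses differed by -0.90 ± 0.21 (limma adjusted p = 0.0105). Its probe set was dim, with a mean of 4.31 over the 12 arrays, as was that of Ngp with 4.52, and no detection call was used here.

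Mmp9 read 5.72, 5.90 and 6.20 in GR KO AKI, 6.33, 6.33 and 6.06 in control AKI, 5.98, 5.64 and 6.09 in GR KO healthy and 5.81, 5.89 and 5.73 in control healthy cortices. Control AKI did not overlap control healthy, but GR KO AKI replicate 3 lay within the control AKI range. The rise in control mice was 0.43 ± 0.14 (limma adjusted p = 0.0359). This call was lost in 5 of 12 fits without 1 array (control AKI replicate 1 or 2, or any control healthy replicate), with adjusted p from 0.0548 to 0.12, and with the replicate number as a block (adjusted p = 0.0577). The difference between GR KO AKI and control AKI was -0.30 ± 0.14 (95% confidence interval -0.61 to 0.01, limma adjusted p = 0.193) and the interaction -0.40 ± 0.20 (limma adjusted p = 0.263), neither called.

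Ngp and Ltf differed from the other 8 members in that neither was called in any comparison. This does not hold for granule genes as a class, since Mmp8 and Mmp9 also encode granule proteins and rose in control mice (0.83 and 0.43). Ngp encodes neutrophilic granule protein, and read 4.57, 4.56 and 4.997 in GR KO AKI, 4.71, 4.46 and 4.45 in control AKI, 4.09, 4.41 and 4.65 in GR KO healthy and 4.42, 4.53 and 4.43 in control healthy cortices. Ltf encodes the iron-binding protein lactotransferrin, and read 5.50, 5.43 and 5.79 in GR KO AKI, 6.09, 5.66 and 5.53 in control AKI, 5.68, 5.85 and 5.68 in GR KO healthy and 5.65, 5.74 and 5.58 in control healthy cortices. All groups overlapped for Ltf, and for Ngp the control AKI arrays lay between the lowest GR KO healthy and the highest GR KO AKI array. In control mice the differences after AKI were 0.08 for Ngp (95% confidence interval -0.24 to 0.41) and 0.10 for Ltf (95% confidence interval -0.20 to 0.41). For the readings of these probe sets, the intervals exclude a change of the size seen for S100a8, S100a9 and Retnlg. The smaller change of Mmp9 lies just above their upper ends. Ngp averaged 4.52 and Ltf 5.68 over the 12 arrays, whose lower quartiles were 5.60 to 5.94, and no detection call was used. A probe set that does not detect its transcript would also read flat, so a change in the transcripts is not excluded. In GR KO mice the differences were 0.32 for Ngp (unadjusted p = 0.0504 and adjusted p = 0.273, limma) and -0.16 for Ltf (95% confidence interval -0.47 to 0.14).

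**Figure D2:**
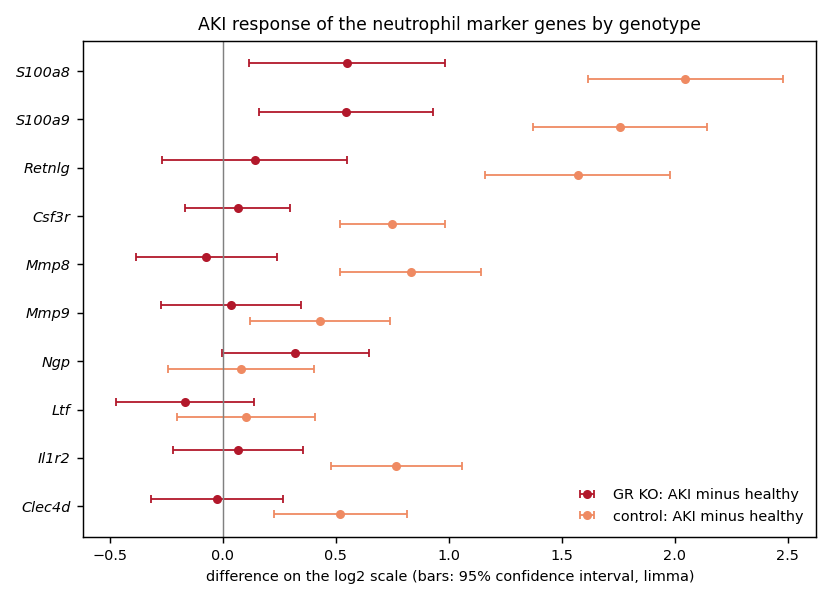
Difference between AKI and healthy arrays on the log2 scale (x axis) for each member (y axis), with GR KO mice above control mice in each row and 95% confidence intervals from limma, not adjusted for multiple testing. The GR KO interval includes 0 for 8 members and lies above 0 for S100a8 and S100a9, and the control interval lies above 0 for all but Ngp and Ltf.

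Group levels of the members had one feature in common. Control AKI had the highest mean for 9 of 10 members, Ngp being the exception with GR KO AKI highest. Every control AKI array lay above every control healthy array for 8 of 10 members, against 19.3% of all genes, and every GR KO AKI array lay below every control AKI array for 7 of 10, against 15.3% of all genes. The mean over the 10 members was 5.42 to 5.72 per array in GR KO AKI, 6.13 to 6.38 in control AKI, 5.39 to 5.50 in GR KO healthy and 5.25 to 5.44 in control healthy cortices. For Retnlg, Csf3r, Il1r2 and Clec4d the difference between the GR KO AKI and GR KO healthy means was 0.14, 0.07, 0.07 and -0.02 in that order, and the arrays of these groups overlapped. Over the 12 arrays, after centring each gene on its own mean, the nearest gene to S100a8 was S100a9 (root mean square distance 0.185), followed by Pdlim7 (0.227) and Thbd (0.231). The genes nearest to the mean profile of the members were Rusc2 (0.0907), Pdlim3 (0.0968), Golt1b (0.109), Card14 (0.114) and Mcam (0.114). Of the members, Csf3r lay nearest to that mean profile (0.113), and S100a8 farthest from it (0.475). Rusc2, Pdlim3 and Golt1b thus lay nearer to it than any member did. These genes, and Card14, Mcam, Pdlim7 and Thbd, are not in the neutrophil lists used here. Each was called higher after AKI in control mice, lower in GR KO AKI than in control AKI, and negative in the interaction. These genes were picked for their likeness to the members or to S100a8 on the same 12 arrays. Their calls therefore largely follow from that choice. They show only that genes outside the neutrophil lists shared the pattern on these arrays.

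The members were then set beside other genes of neutrophils, chosen from general knowledge. Of 23 measured genes of granules and of the oxidase, 4 rose and 3 fell after AKI in control mice (median 0.17), where 13.6% of all genes were called higher and 15.1% lower. The 4 were Lcn2, Chil3, Hp (0.86, limma adjusted p = 0.0156) and Pglyrp1 (0.42, 0.0148), and the 3 were Olfm4, Cybb and Cyba. Hp held its call in 9 and Pglyrp1 in 11 of 12 fits without 1 array. In GR KO mice 1 rose and 0 fell (median -0.06), where 3.29% of all genes were called higher. In GR KO AKI 2 were lower and 1 higher than in control AKI (median -0.21), with 7.34% of all genes called lower and 10% higher. The counts of this list were close to these shares or below them. The lower genes were Chil3 and Lcn2, and the call of Lcn2 was lost in 5 of 12 fits without 1 array (GR KO AKI replicate 2 or 3, or any control AKI replicate) and with a trended and robust variance prior, with adjusted p from 0.057 to 0.136. Chil3, a chitinase-like protein of neutrophils and macrophages, read 4.59, 4.27 and 4.56 in GR KO AKI, 6.16, 7.78 and 6.47 in control AKI, 4.32, 4.08 and 4.15 in GR KO healthy and 3.30, 4.24 and 3.999 in control healthy cortices. Control AKI arrays stood clear of all others, and GR KO AKI arrays overlapped the healthy arrays. Chil3 rose by 2.96 ± 0.32 in control mice (limma adjusted p = 5.94e-06), its difference in GR KO mice was 0.29 ± 0.32 (limma adjusted p = 0.686), and the interaction was -2.67 ± 0.45 (limma adjusted p = 0.00163). Its probe set was dim outside control AKI. Lcn2, a neutrophil granule protein that injured tubules also make, rose in both genotypes (by 3.70 in GR KO and 5.99 in control mice, limma adjusted p = 0.00175 and 1.15e-06).

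Genes of the early granules were not called in either genotype after AKI, Mpo (myeloperoxidase), Elane (elastase), Prtn3 (proteinase 3) and Ctsg (cathepsin G) among them. Mpo read 5.86, 5.64 and 5.94 in GR KO AKI, 6.38, 5.96 and 5.79 in control AKI, 6.16, 5.70 and 6.18 in GR KO healthy and 5.85, 6.15 and 5.94 in control healthy cortices. Camp, the cathelicidin of the later granules, read 5.78, 5.54 and 6.08 in GR KO AKI, 6.54, 5.96 and 5.82 in control AKI, 5.88, 6.15 and 5.82 in GR KO healthy and 6.15, 6.09 and 6.11 in control healthy cortices. For both genes the control AKI arrays overlapped each other group. Differences in control mice were 0.06, 0.03, 0.03, -0.11 and -0.01 for Mpo, Elane, Prtn3, Ctsg and Camp. None of the 5 passed the limma test in control mice (adjusted p from 0.614 to 0.978). In GR KO mice the differences were -0.20, 0.07, -0.19, -0.42 and -0.15 for Mpo, Elane, Prtn3, Ctsg and Camp. Ctsg read 5.37, 5.14 and 4.94 in GR KO AKI and 5.67, 5.55 and 5.49 in GR KO healthy cortices without overlap, a difference with a 95% confidence interval of -0.69 to -0.15 (unadjusted p = 0.00455) that did not pass over all genes (limma adjusted p = 0.0738). Both subunits of the membrane part of the phagocyte oxidase fell in control mice, with differences of -0.66 for Cyba and -0.82 for Cybb (limma adjusted p = 0.000115 and 0.0013). The fall of Cyba was smaller after quantile normalization (-0.36) and cyclic loess (-0.40). Cyba averaged 11.97 in control healthy cortices, close to the 12.15 of the renal tubule genes described below, while Cybb averaged 7.62. Which cells gave the signal of Cyba was not tested.

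Of 17 other surface receptors measured, 6 rose and 0 fell in control mice (median 0.26), where 13.6% of all genes were called higher and 15.1% lower. In GR KO mice 0 were called by limma (median 0.05), where 3.29% of all genes were called higher. An unadjusted p under 0.05 was found there for 3662 of all 19938 genes and for 5 of the 17 receptors. Compared with control AKI, 3 were lower and 0 higher in GR KO AKI (median -0.26), where 7.34% of all genes were called lower. The 3 lower receptors were Cxcr2, Itgam and C5ar1, the receptor of complement C5a, whose call held in 2 of 12 fits without 1 array and was lost in 5 other alternatives. Cxcr2, the chemokine receptor that guides neutrophils into tissue, read 4.83, 4.41 and 4.30 in GR KO AKI, 5.62, 5.96 and 5.46 in control AKI, 4.39, 3.82 and 4.11 in GR KO healthy and 4.04, 3.83 and 4.21 in control healthy cortices. Only control AKI arrays stood clear of the other groups on this dim probe set, and the responses differed by -1.25 ± 0.25 (limma adjusted p = 0.00469). Itgam, the integrin chain CD11b of neutrophils and monocytes, rose by 0.99 ± 0.15 in control mice (limma adjusted p = 0.00012) and was lower in GR KO AKI by 1.83-fold (limma adjusted p = 0.000832), while its interaction did not pass (limma adjusted p = 0.127). Ly6g, the surface antigen used to sort mouse neutrophils, was not called in any comparison, with 5.55, 5.07 and 5.18 in GR KO AKI, 5.34, 5.44 and 5.11 in control AKI, 5.19, 5.15 and 5.31 in GR KO healthy and 4.81, 5.12 and 5.37 in control healthy cortices.

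Of 15 attractants and growth factors measured, 6 rose and 0 fell in control mice (median 0.16), where 13.6% of all genes were called higher and 15.1% lower. In GR KO mice 0 were called by limma (median 0.03), where 3.29% of all genes were called higher. An unadjusted p under 0.05 was found there for 3662 of all 19938 genes and for 3 of the 15 attractants and growth factors. Compared with control AKI, 5 were lower and 0 higher in GR KO AKI (median -0.25), where 7.34% of all genes were called lower. The 5 lower genes were Cxcl1, Cxcl2, Il6, Il1b and Cxcl3, of which Cxcl3 held its call in 5 of 12 fits without 1 array and Il1b in 10 of 12. The call of Il1b was also lost after cyclic loess normalization, and that of Cxcl3 with a trended and robust variance prior, with only the arrays compared, with the replicate number as a block and without both arrays that stood apart. Cxcl1, a chemokine that acts on CXCR2, read 6.95, 6.53 and 6.70 in GR KO AKI, 8.48, 8.90 and 8.49 in control AKI, 6.46, 6.63 and 6.67 in GR KO healthy and 6.44, 6.62 and 6.55 in control healthy cortices. GR KO AKI arrays overlapped the healthy arrays and lay 3.73-fold below control AKI (limma adjusted p = 9.52e-07), and the interaction was -1.94 ± 0.19 (limma adjusted p = 5.55e-05). Il6, a cytokine of the acute phase, read 4.39, 3.89 and 3.71 in GR KO AKI, 4.76, 6.03 and 5.25 in control AKI, 3.50, 3.45 and 3.37 in GR KO healthy and 3.17, 3.52 and 3.27 in control healthy cortices, with an interaction of -1.47 ± 0.35 (limma adjusted p = 0.013). The difference of Il6 in GR KO mice was 0.55 (95% confidence interval 0.03 to 1.08, limma adjusted p = 0.248). Cxcl2, another CXCR2 ligand, rose by 0.78 ± 0.20 in control mice (limma adjusted p = 0.00892, and by 0.50 without control AKI replicate 1) and was 1.98-fold lower in GR KO AKI (limma adjusted p = 0.00329). Csf3, the ligand of Csf3r, stayed uncalled in all 5 comparisons at 5.83, 5.74 and 6.13 in GR KO AKI, 6.06, 5.89 and 5.83 in control AKI, 5.80, 5.96 and 5.92 in GR KO healthy and 5.88, 5.85 and 5.98 in control healthy cortices. The receptor rose in control mice while its ligand's difference there was 0.03 (95% confidence interval -0.22 to 0.28).

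**Figure D3:**
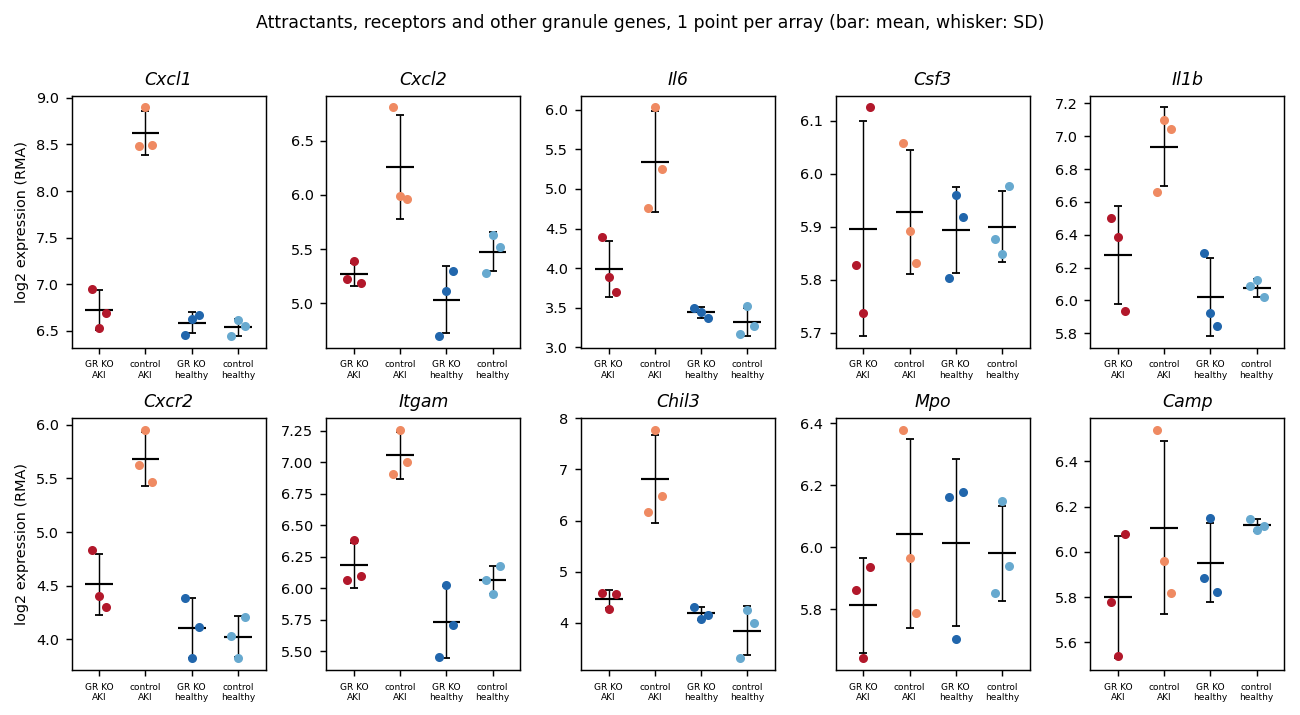
Log2 expression (y axes, one scale per gene, not starting at 0) of attractants (Cxcl1, Cxcl2, Il6, Csf3, Il1b), receptors (Cxcr2, Itgam) and other granule genes (Chil3, Mpo, Camp) on each array, with GR KO AKI, control AKI, GR KO healthy and control healthy from left to right, group means as bars and SDs as whiskers. Control AKI arrays stand above the others for Cxcl1, Cxcl2, Il6, Il1b, Cxcr2, Itgam and Chil3, and overlap each other group for Csf3, Mpo and Camp.

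Of 14 measured partners of the members, 5 rose and 2 fell in control mice (median 0.05), where 13.6% of all genes were called higher and 15.1% lower. The share that fell was therefore not above the background. In GR KO mice 2 rose and 0 fell (median 0.03), where 3.29% of all genes were called higher. Compared with control AKI, 4 were lower and 2 higher in GR KO AKI (median -0.15), where 7.34% of all genes were called lower and 10% higher. Timp1, an inhibitor of Mmp8 and Mmp9, rose in GR KO mice by 2.04 ± 0.30 and in control mice by 3.73 ± 0.30 (limma adjusted p = 0.00185 and 4.25e-07), whereas Timp3, an inhibitor bound to matrix, fell in control mice (difference -1.22, limma adjusted p = 6.27e-05). Il1rn, which encodes the interleukin 1 receptor antagonist, rose by 0.96 ± 0.13 in control mice (limma adjusted p = 4.77e-05) and by 0.54 ± 0.13 in GR KO mice (limma adjusted p = 0.0305), a call in GR KO mice that was lost in 5 of 12 fits without 1 array: without any 1 of the 3 GR KO AKI arrays, or without GR KO healthy replicate 1 or 2 (adjusted p from 0.0613 to 0.143), and without both arrays that stood apart (0.0563). Il1b, the cytokine that Il1r2 captures, rose by 0.86 ± 0.16 in control mice (limma adjusted p = 0.000856) and differed by 0.25 ± 0.16 in GR KO mice (limma adjusted p = 0.448). Tlr4, a receptor of calprotectin, rose by 0.47 in control mice (limma adjusted p = 0.0139, not called without control AKI replicate 2 or control healthy replicate 2, after quantile or cyclic loess normalization, or with only the arrays compared) and read 6.11, 6.01 and 5.95 in GR KO AKI and 6.04, 6.58 and 6.42 in control AKI, against 5.85, 5.97 and 5.99 in GR KO healthy and 6.03, 5.76 and 5.86 in control healthy cortices. Of 7 measured adhesion genes, 2 rose in control mice (Cd44 by 1.30 and Pecam1 by 0.45) and 1 in GR KO mice (Icam1 by 0.53, lost in 9 of 12 fits without 1 array and in 6 other alternatives), and their medians were -0.05 and 0.22. All-gene shares called higher were 13.6% and 3.29%. In GR KO AKI 1 was lower (Cd44) and 2 were higher than in control AKI (median 0.09), with 7.34% of all genes called lower and 10% higher. The higher genes were Vcam1 (0.47, held in 10 of 12 such fits) and Cd34 (0.40, held in 9 of 12). Pecam1 lost its call without control AKI replicate 2 or 3, without control healthy replicate 3 and with only the arrays compared.

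Markers of other cells were counted in the same way. Of 17 monocyte and macrophage genes, 2 rose and 2 fell in control mice (median 0.02), where 13.6% of all genes were called higher and 15.1% lower, so these shares were not above the background. In GR KO mice 2 rose and 0 fell (median 0.08), where 3.29% of all genes were called higher. The risers in both genotypes were Cd68, a lysosomal protein of phagocytes, and Cd14, an endotoxin receptor. Cd14 rose by 1.39 in GR KO and 3.92 in control mice and Cd68 by 1.28 and 2.85, while Csf1r and Mertk, receptors of resident macrophages, fell in control mice, with differences of -0.85 and -0.88 (limma adjusted p = 7e-05 and 0.000687). The mean of this list per array was 6.99 to 7.27 in GR KO AKI, 7.22 to 7.38 in control AKI, 6.92 to 7.11 in GR KO healthy and 6.92 to 7.06 in control healthy cortices. Some genes counted here as neutrophil markers, such as Itgam and Clec4d, are also made by monocytes, and the part of these cells in the result was not tested.

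Of 14 lymphocyte genes, 0 were called by limma in control mice (4 at an unadjusted p under 0.05, median -0.14) and 0 in GR KO mice (1 at an unadjusted p under 0.05, median -0.05). Of 10 eosinophil, basophil and mast cell genes, 0 were called in either genotype (0 in control and 2 in GR KO mice at an unadjusted p under 0.05, medians 0.01 and -0.12). Of 7 platelet and red cell genes, 1 fell in control mice (Slc4a1, an anion exchanger of red cells and of collecting duct cells, difference -1.80) and 0 were called in GR KO mice (2 at an unadjusted p under 0.05, medians 0.05 and -0.04). Of all 19938 genes, 7158 had an unadjusted p under 0.05 in control mice and 3662 in GR KO mice. Over all genes 13.6% were called higher and 15.1% lower in control mice, and 3.29% higher and 1.35% lower in GR KO mice. The share of platelet and red cell genes that fell was therefore not above the background. Renal tubule genes moved opposite to the members: of 12 measured, 9 fell and 1 rose in control mice (median -1.46), 3 fell and 0 rose in GR KO mice (median -0.31), and 8 had a called positive interaction and 0 a negative one, where 7.39% of all genes were called positive. Their mean per array was 11.74 to 11.95 in GR KO AKI, 10.72 to 10.97 in control AKI, 12.10 to 12.21 in GR KO healthy and 12.12 to 12.19 in control healthy cortices, so the group with the highest neutrophil marker levels had the lowest tubule marker levels. The part of this shift in the members' values was not tested. No gene of these 10 lists was called by limma between the uninjected genotypes, and 0 to 3 genes per list had an unadjusted p under 0.05 there. Of all 19938 genes, 2124 had an unadjusted p under 0.05 in that comparison.

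**Figure D4:**
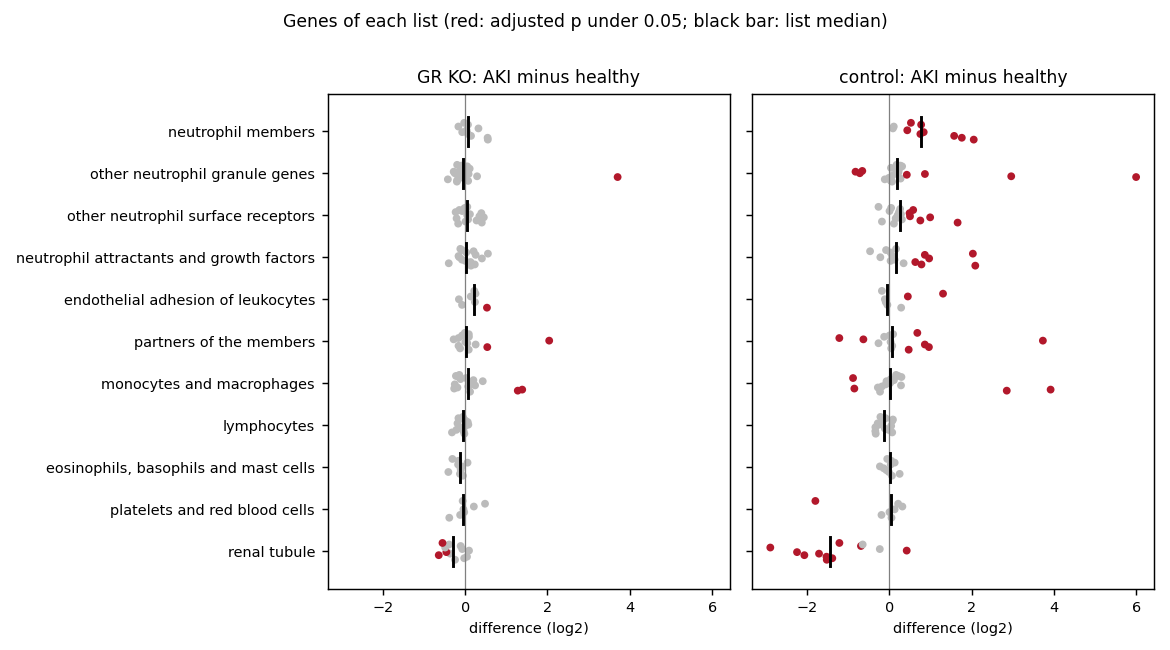
Difference between AKI and healthy arrays on the log2 scale (x axes) for every measured gene of each list (rows), in GR KO mice on the left and control mice on the right, with genes called by limma in red, others in grey and list medians as black bars. The median of the neutrophil marker genes is 0.07 in GR KO mice and 0.76 in control mice, and that of renal tubule genes -0.31 and -1.46.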

How the data were processed

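The deposited values are log2 expression values made by the authors with robust multichip averaging (RMA), which corrects background, normalizes arrays to each other and gives 1 value per probe set, with affy and oligo in R according to the submitters' processing notes. The sources used here give no versions, and the log base was read from the largest values, 14.73 to 14.90 per array. The precision is limited by 3 arrays per group. Of 35556 probe sets, 21789 had exactly 1 symbol in GEO's platform annotation, and the one with the highest mean was kept for each of 19938 genes. Dim genes were kept. Tests used limma 3.58.1 in R 4.3.3 (lmFit and eBayes, 4 group means, all 12 arrays), two-sided, with Benjamini-Hochberg adjustment over all genes within each of 5 comparisons. The fit was tested on simulated data. No column was left unmapped. The members, the 10 other lists and the rules were chosen with earlier results of these data known. Named genes are all members, partners and ligands of members, up to 4 called genes per list with the smallest p, and some genes that were not called (Ly6g, Mpo, Elane, Prtn3, Ctsg and Camp) or that lie further down a list (Cxcl3, Pecam1, Icam1, Tlr4, Hp, Pglyrp1, Olfm4), chosen after their values were seen. Genes most like the members were ranked by distance over the 12 arrays, leaving out predicted genes, clone names and small RNAs. Alternatives were quantile and cyclic loess normalization, a minimum mean of 5, the lowest probe set, another variance prior, array weights, only the arrays compared, a replicate block, each array left out, and, chosen after seeing the data, both arrays that stood apart left out. Protein sequences were not used here.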

Additional observations from a re-analysis of the deposited data

Results flagged for a closer look

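The AKI response differed between genotypes, by limma's interaction test with adjustment over all genes, for 6 of 10 neutrophil marker genes. Differences (response of GR KO mice minus that of control mice, log2 scale) were -1.50 for S100a8 (adjusted p = 0.00346), -1.21 for S100a9 (0.00646) and -1.43 for Retnlg (0.00327). They were -0.68 for Csf3r (0.00962), -0.90 for Mmp8 (0.0105) and -0.70 for Il1r2 (0.0271). For the first 5 of these the call held in each of the 12 fits that left out 1 array, and for Il1r2 in 5 of 12.

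Among other neutrophil genes and attractants the same test called Chil3 (-2.67), Cxcr2 (-1.25), Cxcl1 (-1.94), Cxcl3 (-0.74, held in 7 of 12 such fits) and Il6 (-1.47), and, with the opposite sign, Cyba (0.60, not called after quantile normalization or cyclic loess). Among adhesion genes and partners of the members it called Cd44 (-1.05), Timp1 (-1.69, not called without GR KO healthy replicate 1), Timp3 (1.05) and Lrp1 (-0.68, held in 9 of 12). Among markers of other cells it called Cd68 (-1.57), Cd14 (-2.53), Csf1r (0.59, held in 4 of 12), Mertk (0.90, held in 10 of 12) and Slc4a1 (1.74).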

How the results depend on the processing

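The counts of called members kept within 1.5 times of the reported count under every alternative but 1: with array quality weights 1 member, S100a9, was called higher after AKI in GR KO mice, against 0 otherwise. Leaving out 1 array at a time gave 0 to 0 called members for AKI in GR KO mice, 6 to 8 for AKI in control mice, 6 to 7 lower members in GR KO AKI, 0 to 0 between uninjected genotypes and 5 to 6 negative interactions. The fits on only the arrays compared give no interaction. With the replicate number as a replicate block the counts were 0, 7, 7 and 6, against 0, 8, 7 and 6 without it, and the call lost was Mmp9 in control mice. Same-numbered arrays did not deviate together (correlations over genes from -0.41 to 0.25), so the numbers were not treated as pairs. A minimum mean of 5 removed the members Mmp8 and Ngp and, among other named genes, Il6, Cxcr2, Chil3 and Clec4e. The called differences of single members and listed genes, and those of S100a8 and S100a9 in GR KO mice, were recomputed as well, for members also without each array: of 1142 values 58 were no longer called and 0 changed sign. Renal tubule genes and the genes most like the members were not part of these values. Newly called among members were S100a9 as above, Mmp9 lower in GR KO AKI with array quality weights, and the interaction of Clec4d with array quality weights and without control healthy replicate 3. All genes' medians moved by less than 0.1 under each alternative. Dim probe sets limit what can be said of these 6 named genes, and not of them alone. Clec4d (mean 5.44 over the 12 arrays), Retnlg (5.61), Ltf (5.68) and S100a8 (5.75) lay near the arrays' lower quartiles of 5.60 to 5.94. Group means of Ly6g, Ctsg, Elane and Csf3 lay in or below this range, so their lack of calls is limited in the same way.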
